A study of Ambystoma mexicanum with 8 samples.

Results

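From the 91843 transcripts assembled for the axolotl limb, 4 were followed here: *areg* (amphiregulin), *dusp5* (dual specificity phosphatase 5), *il8* (a CXC chemokine) and the transcript annotated SDHL, the database name of L-serine dehydratase, written *sdhl* below. They were picked by name from the transcripts that the study had listed as different between its groups. The group difference therefore chose them, and it is given as a description with no test. The rule named the 4 contigs one by one and set no threshold of its own, so it leaves no members just inside or outside a limit. All 4 passed the filter on low counts that left 32757 transcripts for testing.

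The libraries came from the limb stump of leucistic axolotls, per the study's methods, all taken 3 days post-amputation (dpa), at the wound healing stage. Repeatedly amputated limbs (n = 4) were failed regenerates after 5 earlier rounds of amputation, amputated a 6th time slightly closer to the body. Control limbs (n = 4) came from related animals without earlier injury and had been amputated 1 time. The new cut therefore lay in tissue that had failed to regenerate in one group and in uninjured tissue in the other, so that the number of amputations and the tissue at the cut cannot be told apart. The column names, Control1, Control3, Control4 and Control6 against MR14, MR2, MR5 and MR6, give the group and no animal. Summed expected counts per library were between 15596527 and 18437103.

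Amphiregulin is a ligand of the epidermal growth factor (EGF) receptor. It is made as a membrane-anchored precursor, is shed from the cell surface by a protease, and acts on the receptor to switch on the ERK kinase cascade. In mammals it is induced in damaged epithelia and by several immune cells. DUSP5 is a nuclear phosphatase that removes activating phosphates from ERK and that ERK signalling itself induces in mammalian cells. IL8 (CXCL8) draws neutrophils to wounds in mammals, and its transcription answers to inflammatory signals and to EGF receptor activity. Serine dehydratase turns serine into pyruvate and ammonia and is best known from amino acid breakdown in mammalian liver.

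The *areg* contig (TR17695|c2_g1_i1) was assigned 699, 393, 392 and 127 expected counts in MR5, MR2, MR6 and MR14, and 138, 99, 99 and 59 in Control3, Control6, Control1 and Control4. Per 1000000 counts of the TMM-scaled library (CPM), the same libraries in the same order held 44.0, 23.7, 23.2 and 8.13 CPM after repeated amputation and 7.25, 5.83, 5.23 and 3.37 CPM after a first one. The groups did not overlap, but MR14 lay close to the highest control, while MR5 stood well above all others. Repeatedly amputated limbs averaged 24.7 ± 14.7 CPM and control limbs 5.42 ± 1.61 CPM (SD, n = 4 each), a 4.56-fold ratio of means and a fitted log2 fold change of 2.19 (SE 0.48). MR5 alone gave 44.4% of the summed CPM of its group, and the ratio of means without it was 3.38-fold. In bulk tissue, a different number of cells of a type and a different amount of RNA per cell cannot be told apart.

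The *dusp5* contig (TR29689|c6_g1_i1) was assigned 1122, 912, 571 and 463 expected counts in MR5, MR2, MR6 and MR14, which made 70.6, 54.9, 33.8 and 29.7 CPM. Control6, Control3, Control1 and Control4 followed with 380, 375, 197 and 181 expected counts, or 22.4, 19.7, 10.4 and 10.3 CPM. The groups did not overlap, and both split into a low and a high pair: Control1 and Control4 below Control3 and Control6, MR14 and MR6 below MR2 and MR5. Group means were 47.2 ± 19.1 CPM after repeated amputation and 15.7 ± 6.25 CPM in control limbs (SD, n = 4 each), a 3.01-fold ratio of means and a log2 fold change of 1.59 (SE 0.38). Among the 4 transcripts this was the smallest fold and the best counted one, with 4201 counts over the 8 libraries.

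The *il8* contig (TR24438|c0_g1_i1) was the least counted, with 330 counts over the 8 libraries. Its expected counts were 111, 91, 35 and 31 in MR5, MR6, MR2 and MR14, which made 6.98, 5.38, 2.11 and 1.99 CPM. Control4, Control3, Control6 and Control1 had 28, 15, 9 and 10, or 1.60, 0.788, 0.530 and 0.529 CPM. Repeatedly amputated limbs again lay above all control limbs, with MR5 and MR6 high and MR2 and MR14 only just above Control4. At this depth the last distinction was not resolved by counting alone. The 28 counts of Control4 have an exact 95% Poisson interval of 18.6 to 40.5 and the 31 counts of MR14 one of 21.1 to 44.0, both for counting error only. Group means were 4.11 ± 2.48 CPM after repeated amputation and 0.862 ± 0.507 CPM in control limbs (SD, n = 4 each), a 4.77-fold ratio of means and a log2 fold change of 2.25 (SE 0.55).

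The *sdhl* contig (TR23305|c0_g1_i1) had the widest relative spread of the 4 among repeatedly amputated limbs, with a coefficient of variation of 78.8%. Its expected counts were 456, 224, 206 and 24 in MR5, MR14, MR2 and MR6, or 28.7, 14.3, 12.4 and 1.42 CPM. Control1, Control4, Control3 and Control6 had 34, 27, 16 and 13, or 1.80, 1.54, 0.840 and 0.765 CPM. Here the groups overlapped: MR14, MR2 and MR5 stood far above all control limbs, whereas MR6 lay within the control range, below Control1 and Control4. The 24 counts of MR6 have an exact 95% Poisson interval of 15.4 to 35.7, which does not reach the lower bound of 179 for MR2. Group means were 14.2 ± 11.2 CPM after repeated amputation and 1.24 ± 0.513 CPM in control limbs (SD, n = 4 each), with an 11.5-fold ratio of means and a log2 fold change of 3.51 (SE 0.81). This was the largest fold of the 4 transcripts and rested on 3 of the 4 repeatedly amputated limbs.

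**Figure D1:**
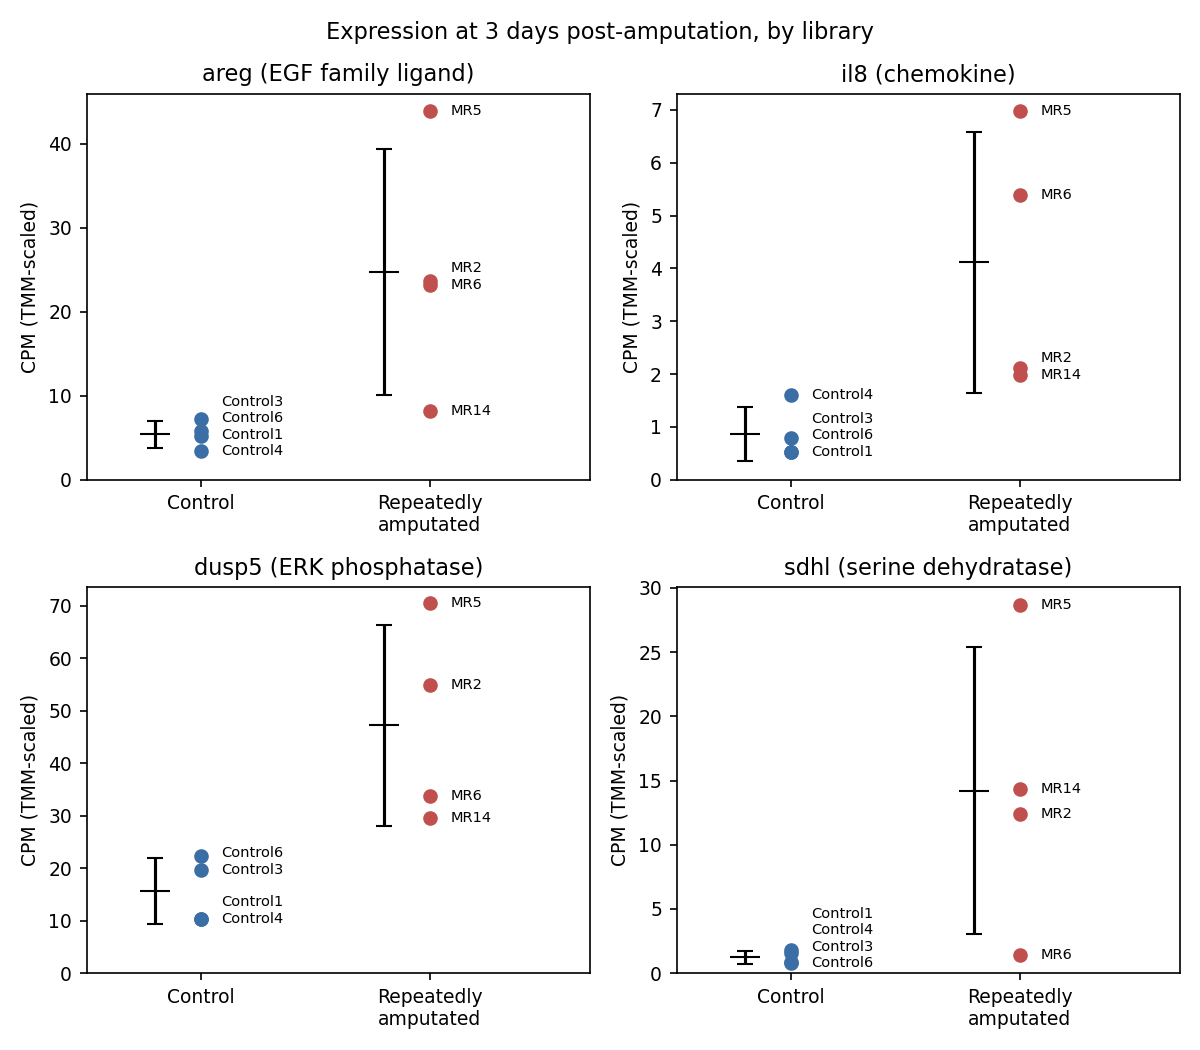
Expression of *areg*, *il8*, *dusp5* and *sdhl* in CPM (TMM-scaled, linear axes from 0) in 4 control (blue) and 4 repeatedly amputated (red) limbs, 1 point per library. Black bars give the mean ± SD of each group (n = 4). MR5 is the highest library in all 4 panels, and MR6 lies among the control limbs only for *sdhl*.

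Read against all tested transcripts, a separation of this kind was not rare. All control limbs lay below all repeatedly amputated limbs for 3 of the 4 transcripts (*areg*, *dusp5* and *il8*) and for 3.29% of the 32757 tested, and 6.37% had no overlap in either direction. For *areg* and *il8* the closest libraries of the groups were not resolved by counting alone. With edgeR's quasi-likelihood test at a false discovery rate (FDR) of 0.05, 0 of the 4 were called, and the share of tested transcripts called higher in repeatedly amputated limbs was 0.00611% (0.0122% in either direction). At an unadjusted p under 0.05 in the same test, 4 of 4 passed, against 6.47% of all tested in that direction. By edgeR's exact test and by DESeq2's Wald test, both at an adjusted p under 0.05, 4 of 4 passed, against 0.855% and 1.73% of tested transcripts in that direction. Since the 4 were drawn from the study's own calls on these libraries, nothing is read from these counts. The median log2 fold change of all tested transcripts was -0.0066.

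With each library left out in turn, the log2 fold change was between 1.76 and 2.48 for *areg*, 1.33 and 1.80 for *dusp5*, 1.87 and 2.73 for *il8*, and 2.92 and 3.90 for *sdhl*. For each of the 4, the lowest value was the one without MR5. MR5 also had the highest summed level of cartilage markers (185 CPM against 11.7 to 20.5 CPM in the other repeatedly amputated limbs). The same held for secretory skin markers (312 CPM against 5.62 to 32.3 CPM), of which MUC5A held 253 CPM in MR5. Members of the secretory list went opposite ways. MUC2L stood at 46.1 CPM in Control3, 7.95 in Control6, 0 in Control1 and Control4, and 0.126 CPM or less in repeatedly amputated limbs. The part of cartilage and secretory skin markers in the values of the 4 transcripts was not tested. The highest value came without MR14 for *areg*, without Control6 for *dusp5*, without Control4 for *il8* and without MR6 for *sdhl*.

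**Figure D2:**
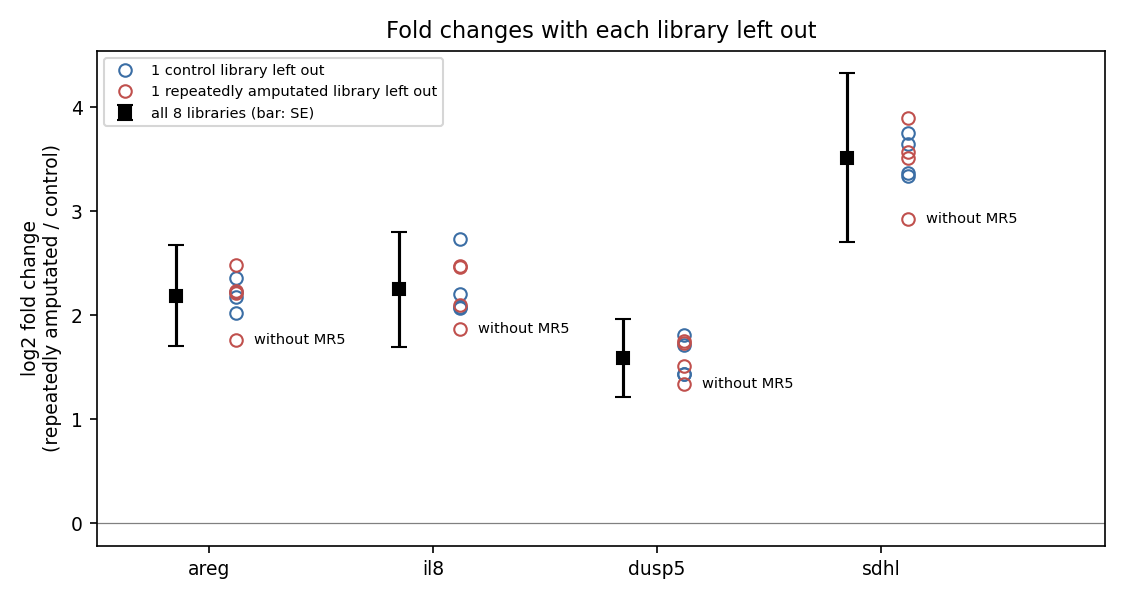
Fitted log2 fold change of repeatedly amputated over control limbs for each transcript, with all 8 libraries (black squares, bars show the SE) and with 1 library left out (open circles, blue for a control and red for a repeatedly amputated limb). The value without MR5 is the lowest for each transcript, and all values are above 0.

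Levels were set side by side between genes per transcript length, as FPKM scaled between libraries by the authors. In control limbs *areg* and *dusp5* stood at 7.68 ± 2.33 and 7.66 ± 2.96 FPKM (SD, n = 4), which did not differ beyond their spread, and *areg* was the higher one in 2 of 4 libraries. *il8* followed at 1.05 ± 0.574 FPKM and *sdhl* at 0.541 ± 0.240 FPKM (SD, n = 4), a further pair within its spread. In repeatedly amputated limbs *areg* stood at 32.8 ± 18.4 and *dusp5* at 21.9 ± 8.42 FPKM (SD, n = 4), again within the spread, with *areg* higher in 3 of 4 libraries. There *sdhl* stood at 5.80 ± 4.36 and *il8* at 4.74 ± 2.69 FPKM (SD, n = 4), and *il8* was above *sdhl* only in MR6. The ligand and the phosphatase were above the chemokine and the enzyme in all 8 libraries. The ratio of *areg* to *dusp5* FPKM ran from 0.751 to 1.45 in control limbs and from 0.791 to 1.98 in repeatedly amputated limbs. The ratio of *areg* to *sdhl* ran from 7.13 to 28.0 in control limbs and from 1.83 to 52.4 in repeatedly amputated limbs, the latter extreme being MR6.

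How the 4 transcripts varied together was examined within the groups, after each group's mean log2 CPM had been subtracted. Covariation between transcripts inside the groups was not used to choose them, although the spread of each transcript entered the study's edgeR calls. The closest pair was *areg* and *dusp5* (Pearson's r = 0.76, exact permutation p = 0.0208, Spearman's rho = 0.93, exact permutation p = 0.0139, n = 8 libraries). These two-sided tests permuted libraries within groups. After Benjamini-Hochberg adjustment over the 14 relations tested, the exact permutation p was 0.292 for r and 0.194 for rho, so that the relation did not pass. Both genes were lowest in MR14 and highest in MR5 among repeatedly amputated limbs, and lowest in Control4 among control limbs. For *dusp5*, Control4 (181 counts) and Control1 (197 counts) were not resolved by counting alone. Without the 2 libraries farthest from the median of *areg*, r was 0.54.

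The other pairs were looser. Within groups, *areg* and *il8* had r = 0.38 (exact permutation p = 0.516) and *dusp5* and *sdhl* r = 0.19 (exact permutation p = 0.790). The r was 0.048 for *il8* and *dusp5* (exact permutation p = 0.929), 0.010 for *areg* and *sdhl* (exact permutation p = 0.970), and -0.072 for *il8* and *sdhl* (exact permutation p = 0.964). Spearman's rho for these pairs lay between -0.14 (*il8* and *sdhl*) and 0.43 (*il8* and *dusp5*). Each of these 5 pairs had an adjusted exact permutation p of 0.974, and each changed sign in at least 1 alternative. For each of the 5, r had opposite signs in control and repeatedly amputated limbs (n = 4 each, not tested). In control limbs it was -0.71 (*areg* and *il8*), -0.66 (*areg* and *sdhl*), -0.44 (*il8* and *dusp5*), -0.99 (*dusp5* and *sdhl*) and 0.29 (*il8* and *sdhl*). In repeatedly amputated limbs it was 0.76, 0.10, 0.41, 0.58 and -0.16 in the same order. Libraries whose rank differed between transcripts were picked after the values were seen. Control4 was lowest for *areg* and *dusp5* but highest for *il8*, and MR6 was high for *il8*, intermediate for *areg* and lowest for *sdhl*.

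Markers of the tissues in the stump also differed between libraries. The summed level of 78 muscle marker contigs (titin, nebulin, myosins, troponins and others) was 22.6 to 767 CPM in control limbs and 392 to 9267 CPM in repeatedly amputated limbs. In all control limbs 7 of these contigs had 0 counts (1 of titin, 4 of MYH6, 1 of MYH7 and 1 of RYR1) and 0 of them had none in all repeatedly amputated limbs. The 8 epidermis marker contigs summed to between 1070 and 4028 CPM in control limbs and between 411 and 1715 CPM in repeatedly amputated limbs. The largest contig was a keratin, K2C5 or K2C6A, in each control limb and LAMB3 (159 to 928 CPM) in each repeatedly amputated limb. The epidermis sum therefore rests on different contigs in the groups. CD109 was at 0 in all control limbs and TGM3 at 0 in all repeatedly amputated limbs. The counts of the CD109 and TGM3 contigs were not whole numbers, as where reads are divided among contigs, so they describe these contigs and not the genes. The epidermis members went opposite ways, none called at an FDR of 0.05 by edgeR's quasi-likelihood test. Log2 fold changes were -3.20 (SE 1.09) for K2C5 and -4.17 (SE 0.92) for K2C6A, which dominate the sum in control limbs only. They were 2.00 (SE 0.45) for LAMA3, 1.84 (SE 0.56) for LAMB3 and 2.04 (SE 0.66) for TGM1, and the median of the 5 tested was 1.84. The muscle and epidermis sums overlapped between groups, and those of 2 further lists did not. The 10 cartilage marker contigs summed to between 1.35 and 2.27 CPM in control limbs and between 11.7 and 185 CPM in repeatedly amputated limbs, with 2 aggrecan (PGCA) contigs at 0 in all control limbs. The 8 immunoglobulin marker contigs summed to between 539 and 923 CPM in control limbs and between 159 and 291 CPM in repeatedly amputated limbs, with none at 0 throughout a group. At an unadjusted p under 0.05 in edgeR's quasi-likelihood test, all 8 were lower. All 35 tested muscle contigs and all 3 tested cartilage contigs were higher, and of the 5 epidermis contigs 3 were higher and 2 lower. Of all tested transcripts, 6.47% were higher and 11.1% differed in either direction at that limit. All these markers come from the study's own list of differing transcripts, so nothing is read from how many passed. MR6 had the lowest muscle sum of the repeatedly amputated limbs and MR5 the highest, the same 2 libraries that were lowest and highest for *sdhl*.

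Within groups, *sdhl* and the muscle sum had r = 0.63 (exact permutation p = 0.0816, adjusted 0.571, Spearman's rho = 0.52 with exact permutation p = 0.212, n = 8 libraries). Without the 2 libraries farthest from the median of *sdhl*, r was 0.38. With 1 library left out, r ran from 0.32 (without MR6) to 0.82 (without Control1). In control limbs alone r was 0.15, and in repeatedly amputated limbs alone it was 0.94 (n = 4 each, not tested). The other 7 relations of a transcript to the muscle or epidermis sum had r between -0.52 (*sdhl* and epidermis) and 0.61 (*il8* and epidermis). For r over all 8 libraries, none had an exact permutation p below 0.170 before adjustment, and 4 of them changed sign in at least 1 alternative. Their largest Spearman's rho was 0.79, for *il8* and epidermis (exact permutation p = 0.123, adjusted 0.853). None of the 14 relations passed after adjustment, under the main choices or any alternative run. With libraries left out, fewer arrangements remain, so that a lone relation could not reach an adjusted p under 0.05 in those runs. The smallest adjusted exact permutation p of any alternative was 0.0972, for *sdhl* and muscle without Control1. The part of muscle, epidermis, cartilage or immunoglobulin markers in the group difference of the 4 transcripts was not tested.

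**Figure D3:**
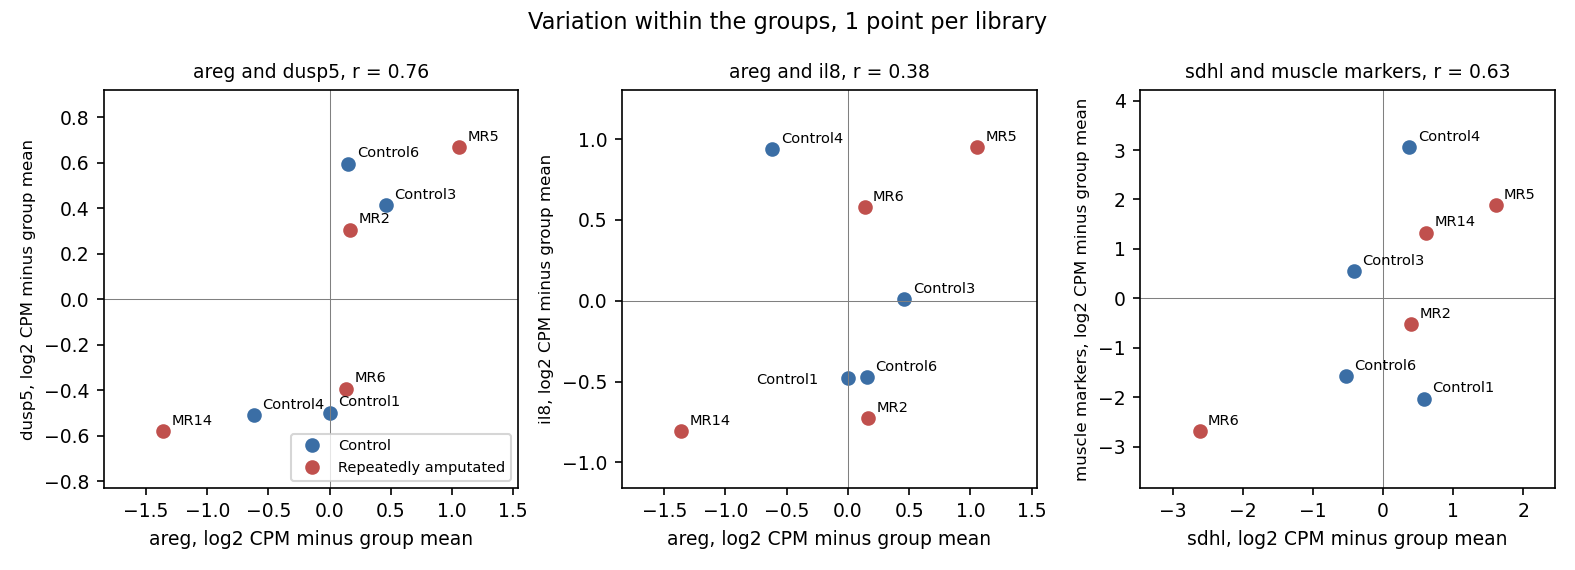
Log2 CPM minus the mean of the library's own group for *areg* and *dusp5*, *areg* and *il8*, and *sdhl* and the summed muscle markers, 1 point per library (blue control, red repeatedly amputated, n = 8). The *areg* and *dusp5* panel runs from MR14 at the lower left to MR5 at the upper right (r = 0.76), Control4 departs from the other libraries in the *areg* and *il8* panel (r = 0.38), and MR6 lies at the lower left for *sdhl* and muscle (r = 0.63).

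Trinity had placed other contigs in the same read clusters as *areg* and *dusp5*, and these were not used to choose the genes. The *areg* cluster held 11 others, of which 1 passed the filter, and the *areg* contig carried 84.4% of the cluster's counts. The tested one (TR17695|c0_g1_i1, with no protein name in the study's list) stood at 2.20, 0.301, 1.83 and 0.576 CPM in MR5, MR2, MR6 and MR14 and at 0.578, 1.06, 0.423 and 0.514 CPM in Control3, Control6, Control1 and Control4. MR5 and MR6 were high and the remaining libraries overlapped, so that MR2, among the higher libraries for *areg*, was the lowest of all for this contig. These were low counts, 5 in MR2, 8 in Control1 and 9 in MR14, so the order of such libraries is uncertain. Its log2 fold change of 0.93 (SE 0.62) did not pass edgeR's quasi-likelihood test (FDR = 0.639).

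The *dusp5* cluster held 25 others, of which 3 passed the filter, and the *dusp5* contig carried 49.2% of the cluster's counts. The largest, TR29689|c4_g1_i1, was at 33.7, 16.2, 32.0 and 23.2 CPM in MR5, MR2, MR6 and MR14 and at 13.6, 20.2, 22.2 and 22.6 CPM in Control6, Control3, Control1 and Control4. Its groups overlapped, MR2 falling below 3 of the 4 control limbs, and its log2 fold change was 0.42 (SE 0.26, edgeR quasi-likelihood FDR = 0.606). The other tested contigs had log2 fold changes of 0.20 (SE 0.23, FDR = 0.812, TR29689|c5_g1_i1) and -0.13 (SE 0.31, FDR = 0.930, TR29689|c8_g1_i1) in the same test. One more neighbour, TR29689|c19_g1_i1 of the *dusp5* cluster, is itself on the study's list of differing transcripts, without a protein name. It did not pass the filter and was not tested here: it had 0 counts in all 4 control limbs and 5, 4, 2 and 2 counts in MR5, MR14, MR2 and MR6. Of the 4 neighbours that were tested none was called, with 0 at an unadjusted p under 0.05 by edgeR's quasi-likelihood test and 0 by the exact and Wald tests at an adjusted p under 0.05. Whether these contigs belong to the same genes as *areg* and *dusp5* was not tested, since the contig sequences were not used here. *il8* and *sdhl* were alone in their clusters.

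**Figure D4:**
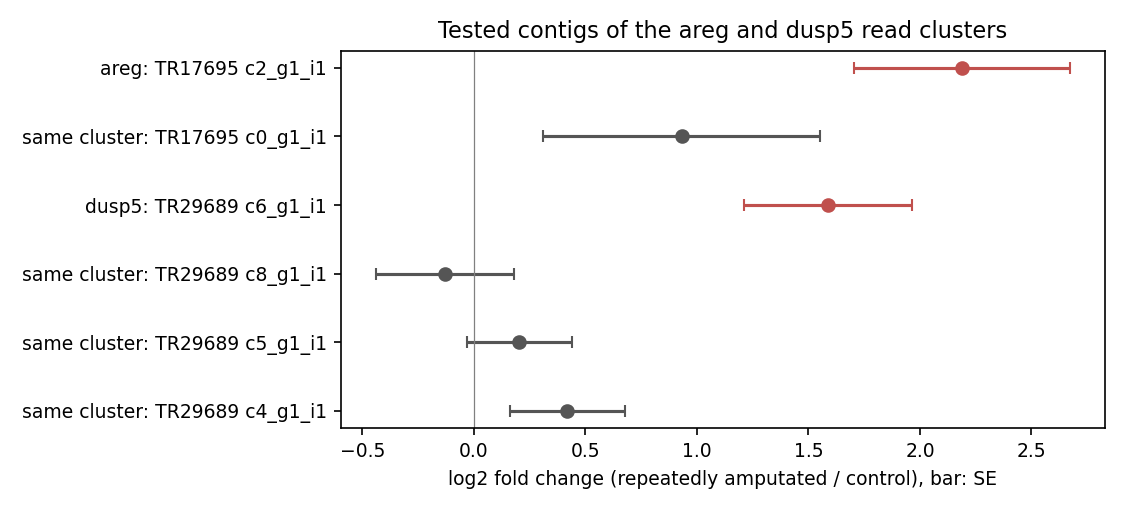
Log2 fold change of repeatedly amputated over control limbs (bars show the SE) for the *areg* and *dusp5* contigs (red) and for the 4 other tested contigs of their read clusters (grey). The *areg* and *dusp5* contigs lie at 2.19 and 1.59, the others between -0.13 and 0.93.

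The transcripts whose log2 CPM was most like that of *areg* over the 8 libraries were sought among the 259 tested transcripts with a protein name. Group difference and within-group variation both enter this measure, and all named transcripts come from the study's list of differing ones. The 5 most alike were WNT5A, a secreted Wnt ligand (r = 0.95), PLEK2, a pleckstrin family protein of the cell cortex (r = 0.95), TOR3A, a torsin ATPase (r = 0.93), *dusp5* (r = 0.93), and IL6RB, the signal-transducing receptor subunit shared by interleukin-6 family cytokines (r = 0.92). WNT5A stood at 3.96, 4.57, 4.44 and 1.92 CPM in MR5, MR2, MR6 and MR14 and at 1.26, 1.12, 0.952 and 0.743 CPM in Control3, Control6, Control1 and Control4. As with *areg*, Control4 and MR14 were the lowest libraries of their groups. The named IL6RB contig had 0 counts in all control limbs, which allows up to 0.177 CPM in the shallowest of them, and 11.2, 1.75, 1.54 and 1.22 CPM in MR5, MR2, MR6 and MR14. Set against 3 counts in each control library, the mean of this contig in repeatedly amputated limbs was at least 23.6-fold higher, for counting error only. Without MR5 the bound was 9.03-fold. Its expected counts were not whole numbers (177.9, 29.45, 26.38 and 19.46 in MR5, MR2, MR6 and MR14), as where reads are divided among contigs. The bound therefore covers this contig and not the gene, and the division of reads was not tested.

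For *dusp5* the most alike were *areg* (r = 0.93), calmodulin (CALM, r = 0.91) and WNT5A (r = 0.91). *il8* was most like IOD3, the deiodinase that inactivates thyroid hormone (r = 0.95), ATS8, a secreted metalloprotease (r = 0.95), and tensin, a focal adhesion protein (r = 0.95). *sdhl* was most like KEAP1, the sensor that restrains the oxidative stress factor NRF2 in mammals (r = 0.97), VGLL3, a cofactor of TEAD transcription factors (r = 0.97), and RYR3, a calcium release channel of muscle and other cells (r = 0.96). The counts of the KEAP1 contig were not whole numbers, as where reads are divided among contigs, so they describe this contig and not the gene. A high r was not particular to these named transcripts. Among all 32756 other tested transcripts, 129 had r above 0.9 with *areg*, and 58 were more like *areg* than *dusp5* was.

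Genes of related function were then followed in 4 lists drawn from the study's own list, which is therefore no independent evidence of their direction. None of their members was called at an FDR of 0.05 by edgeR's quasi-likelihood test, so the counts refer to an unadjusted p under 0.05 in that test, beside 6.47% of all tested transcripts higher and 11.1% in either direction. Of 8 contigs of ERK and AP-1 signalling 6 were tested, 5 of them higher and 1 lower in repeatedly amputated limbs, with a median log2 fold change of 1.94. FOSL2, an AP-1 subunit, had a log2 fold change of 1.68 (SE 0.41), from 5.38 ± 0.507 to 17.3 ± 11.4 CPM (SD, n = 4), and HGFL, a ligand of the RON receptor, one of 1.39 (SE 0.27), from 14.1 ± 3.88 to 37.0 ± 11.4 CPM (SD, n = 4). CTGF, a matricellular protein, had one of 2.19 (SE 0.45), from 24.5 ± 6.91 to 112 ± 74.1 CPM (SD, n = 4). None of these 3 overlapped between groups, and each was highest in MR5. Of all tested transcripts, 3.29% had every repeatedly amputated limb above every control limb. FOSB, another AP-1 subunit (log2 fold change 3.23, SE 0.82), overlapped between groups, with MR6 at 0.355 CPM and Control4 at 0.629 CPM. The untested FGFR4 and DUS14 had at most 3 and 6 counts in a control limb and at most 30 and 60 in a repeatedly amputated one. The 1 lower transcript was RND1, a small GTPase that acts on the actin cytoskeleton (log2 fold change -2.84, SE 0.67).

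Of 8 cytokine and prostaglandin contigs 7 were tested, 6 higher and 1 lower, with a median log2 fold change of 1.82, which was the same with IL6RB at its lower bound. SDF1, the chemokine CXCL12, stood at 2.19 ± 0.419 against 9.40 ± 3.44 CPM (SD, n = 4; log2 fold change 2.10, SE 0.31). BCL6, a transcriptional repressor, stood at 1.54 ± 0.521 against 5.49 ± 3.31 CPM (SD, n = 4; log2 fold change 1.82, SE 0.47) and was lowest in MR5 and MR2 among repeatedly amputated limbs, unlike *areg*. The counts of the BCL6 contig were not whole numbers, as where reads are divided among contigs, so they describe this contig and not the gene. PTGIS, prostacyclin synthase, stood at 2.61 ± 0.537 against 8.91 ± 4.10 CPM (SD, n = 4; log2 fold change 1.77, SE 0.34). All 3 were without overlap between groups, beside 3.29% of all tested transcripts in that direction. ADIPO overlapped, with MR2 at 0.602 and MR6 at 0.473 CPM against Control4 at 0.629 CPM. The 1 lower transcript was LITAF, an endosomal protein first described as induced by lipopolysaccharide (log2 fold change -2.64, SE 0.81). It overlapped too, MR6 at 1.06 CPM lying above Control4 at 0.971 CPM. RETN, which did not pass the filter, also lay lower, with 63, 34, 1 and 1 counts in Control3, Control6, Control1 and Control4 and 0 in all repeatedly amputated limbs.

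Of 7 stress and hypoxia contigs 6 were tested, and these 6 were higher, with a median of 1.68. The 7th, a contig of the HIF prolyl hydroxylase EGLN3, did not pass the filter and went the other way, with 180, 114, 52.1 and 0 expected counts in Control4, Control3, Control1 and Control6 and 0 in all repeatedly amputated limbs. Its counts were not whole numbers, as where reads are divided among contigs, so they describe this contig and not the gene. The chaperone HSP70 (log2 fold change 2.04, SE 0.65) and its partner BAG3 (1.53, SE 0.40) overlapped between groups, MR2 lying among the control limbs for both, while the RNA-binding protein CIRBP did not (1.69, SE 0.36). Of 8 contigs of intermediary metabolism 4 were tested, 3 higher and 1 lower, with a median of 2.95. The 4 untested ones (GLSL, DPYS, MAON and GUAD) had at most 9 counts in any control limb, and MAON had counts in MR14 alone. The counts of the MAON and GUAD contigs were not whole numbers either, with the same limit. PDK2, a kinase that restrains pyruvate dehydrogenase, had a log2 fold change of 1.93 (SE 0.42), and PFKAM, the muscle form of phosphofructokinase, one of 3.97 (SE 1.28) with overlap, because MR6, at 2.66 CPM, lay below Control4, at 7.71 CPM. The alcohol dehydrogenase ADH1 went the other way, with a log2 fold change of -2.67 (SE 0.70). Like *sdhl*, PFKAM lay within the control range in MR6 and above it in the other repeatedly amputated limbs.

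**Figure D5:**
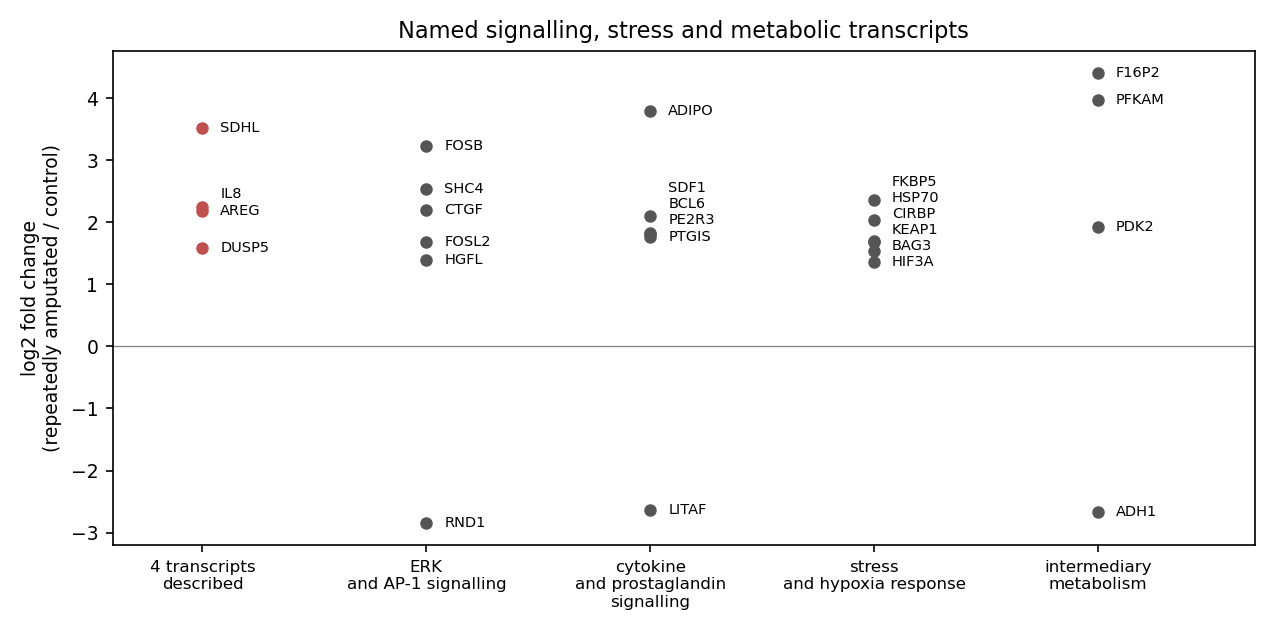
Log2 fold change of repeatedly amputated over control limbs for the 4 transcripts described (red) and for tested members of the 4 lists (grey), each labelled by its protein name. IL6RB is left out because it had 0 counts in all control limbs; RND1, LITAF and ADH1 are the transcripts below 0.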

How the data were processed

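RNA from 8 limb stumps was sequenced as paired-end Illumina reads. Per the labels, CASAVA 1.8.2 and RSEM were used. The authors assembled the reads with Trinity, named transcripts with Trinotate and kept those past an FPKM threshold. They deposited RSEM's expected counts per transcript (not normalized, 91.5% whole numbers) and FPKM values scaled between libraries by TMM. Both tables hold 91843 transcripts, and columns were assigned to groups by name. No genome was used.

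Protein names came from the study's list of differing transcripts, whose mean values were matched to the deposited FPKM (892 of 912 entries matched 1 contig, 490 of these with a name). The 4 transcripts and all lists were chosen with earlier results of these data known. Named transcripts are the 4, the tested contigs of their clusters, the 5 most alike to *areg* and 3 to each other one, and the 3 with the highest mean CPM of each list. Others (RND1, LITAF, FOSB, ADIPO, FGFR4, DUS14, RETN, EGLN3, GLSL, DPYS, MAON, GUAD, TR29689|c19_g1_i1 and marker names) were named after their values were seen.

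Expected counts were rounded, filtered (filterByExpr), scaled by TMM and fitted with edgeR 4.0.16 (robust quasi-likelihood F-test, Benjamini-Hochberg over 32757 transcripts), in R 4.3.3. CPM are per 1000000 of the TMM-scaled library. For correlations, log2 CPM (prior count 2) had group means removed and were permuted over all 576 arrangements within groups, where the smallest p is 0.00174. Exact Poisson intervals are at 95%. Fits were tested on simulated counts first. Per the study's methods, the 4 specimens of each condition came from different animals and were processed separately. Alternatives were DESeq2 1.42.0 size factors and Wald test, upper-quartile scaling, TMM without muscle markers, edgeR's exact test, other filters, limma 3.58.1 on log2(FPKM + 1) or (FPKM + 0.1), a prior count of 0.5, and each library left out. The bound for IL6RB without MR5 was added after the data were seen.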

Additional observations from a re-analysis of the deposited data

Results flagged for a closer look

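In groups of 4 libraries, the highest or lowest library was compared with the others by Dixon's criterion, which chance passes in about 1 in 20 groups of normally distributed values. The CPM sums were not log-transformed and the groups share libraries, so that this rate need not hold here. Of 34 groups checked, 6 had a library that stood apart, and none of these was a group of *areg*, *dusp5*, *il8* or *sdhl*. MR5 stood above the other repeatedly amputated limbs in the summed CPM of ERK and AP-1 signalling (328), of cartilage markers (185) and of secretory skin markers (312). Control3 stood above the other control limbs in the sums of epidermis markers (4028 CPM) and of intermediary metabolism (4010 CPM), and Control4 in the sum of muscle markers (767 CPM). Single contigs made up most of several sums. In MR5, CTGF held 222 of the 328 CPM and MUC5A 253 of the 312 CPM. In Control3, K2C5 held 3045 of the 4028 CPM and ADH1 3999 of the 4010 CPM. These sums therefore do not describe their lists as a whole.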

How the results depend on the processing

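The log2 fold changes of *areg*, *dusp5*, *il8* and *sdhl* kept their direction under every alternative run, and moved by more than the spread between replicates only with limma on log2(FPKM + 1), to 1.40 for *il8* and 1.83 for *sdhl*, a scale that by construction compresses transcripts of low level. The number of transcripts called at an FDR of 0.05 was 4 by edgeR's quasi-likelihood test, 21 with no filter, 9 with at least 10 summed counts, 374 by edgeR's exact test, 759 by DESeq2's Wald test, and 11 and 10 with limma on log2(FPKM + 1) and log2(FPKM + 0.1). With a library left out it was between 2 (without MR5) and 14 (without Control1), and the cause was not tested. Other contigs of the read clusters and the within-group relations had 0 calls under every alternative. For the within-group relations, runs with libraries left out had too few arrangements for a lone relation to pass. Within groups, r of *areg* and *dusp5* stayed above 0 (0.65 to 0.83 with a library left out). Other pairs changed sign. With the 2 libraries farthest from the median left out, r was -0.89 for *areg* and *sdhl*, -0.64 for *il8* and *dusp5* and -0.10 for *dusp5* and *sdhl*, whose rho over all 8 was also -0.10. With 1 library left out, r ran from -0.026 to 0.77 for *areg* and *il8*, -0.55 to 0.34 for *areg* and *sdhl*, -0.37 to 0.37 for *il8* and *dusp5*, -0.57 to 0.65 for *il8* and *sdhl*, and -0.26 to 0.33 for *dusp5* and *sdhl*. No paired analysis was run. Per the study's methods the specimens came from separate animals, and neither the labels nor the column names state a pairing between groups. Depth limits *il8* and *sdhl* most, with 9 to 34 counts per control library.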
